A study of Rattus norvegicus with 6 samples.

Results

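Matrix metalloproteinases (MMPs) and the inhibitors that hold them in check were followed in the RNA-seq of rat brain microvascular endothelial cells (rBMECs) exposed to homocysteine (Hcy). The members are 10 genes of the deposited count table, taken by gene name from its 33566 rows: 6 proteases (Mmp2, Mmp3, Mmp9, Mmp10, Mmp14 and Mmp15) and 4 inhibitors (Timp1, Timp2, Timp3 and Reck). All 10 had at least 10 counts summed over the libraries and were among the 14603 genes tested. Libraries came from 3 cultures given Hcy for 24 h and 3 given the vehicle, sterile water (Veh). The labels give a dose of 100 μM Hcy, while the treatment protocol names a prepared solution of 50 μM, so the dose is uncertain between these values. Every library was made from primary, once-passaged cells of Sprague-Dawley rats 18 to 22 days of age. The series describes the 3 libraries of a group as biological replicates without saying whether they came from separate isolations, so a p-value measures the spread between these libraries.

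MMPs are zinc-dependent proteases that are made as inactive proenzymes and cut proteins of the extracellular matrix. In brain vessels the gelatinases MMP-2 and MMP-9 are known for cutting basement membrane and tight junction proteins, and MMP-9 is widely studied in barrier leakage after stroke and inflammation. TIMPs bind the active site of MMPs, and RECK is a membrane-anchored inhibitor known from vessel development. The counts measure mRNA, and neither proenzyme activation nor enzyme activity was measured here.

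Libraries held 14024997 to 16764584 counts, so that 3 counts, taken as the floor, came to between 0.178 and 0.215 CPM (counts per 1000000, scaled with TMM factors). These limits cover counting error only. Across genes, the Hcy and Veh libraries were parted along the first principal component (30.4% of the variance), and Veh replicate 3 was parted from Veh replicates 1 and 2 along the second (25.2%). Endothelial markers were abundant, with Cdh5 at 1535 CPM or more and Vwf at 1976 CPM or more in every library, although Cldn5 had 0 counts in each. The summed level of the 11 endothelial markers in the table was 9209 to 9645 CPM in Hcy and 7664 to 8959 CPM in Veh. These ranges did not overlap, with Hcy higher. Of the 10 tested, 0 were called, against 0.486% of all genes tested. Of the leukocyte markers, Ptprc, Cx3cr1 and P2ry12 had 0 counts in all 6 libraries, while S100a9 had 31 to 70 counts and Cd68 had 8 to 31.

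A gene was called when its adjusted p was at most 0.05 (edgeR's quasi-likelihood test, Benjamini-Hochberg adjustment over all genes tested) and its log2 fold change was at least 1 in size. Of the 10 members, Mmp9 and Mmp10 rose and Timp2 fell. Such calls made up 0.486% of all genes tested, 0.253% higher and 0.233% lower. On the adjusted p alone Mmp15 was also higher, giving 3 members higher and 1 lower where 1.32% of all genes passed as higher and 1.01% as lower (2.34% in all). In 6 of the 10 members the Hcy libraries did not overlap the Veh libraries, against 20.1% of all genes. The members were chosen with earlier results of these data known, so these shares describe the choice as well as the cells. The median log2 fold change was 0.54 over the 6 proteases, -0.10 over the 4 inhibitors and -0.02 over all genes tested.

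**Figure D1:**
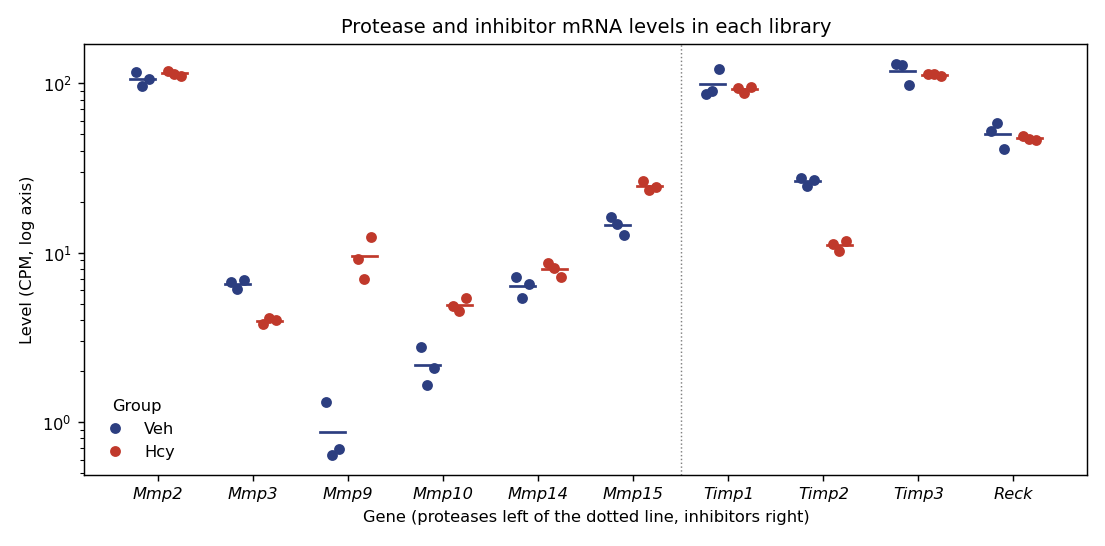
Level of each member in CPM on a log axis, with a point for each library, a bar for the mean of 3 libraries, Veh in blue and Hcy in red. Mmp9 moves farthest, from 0.637 to 1.31 CPM in Veh to 6.99 to 12.4 CPM in Hcy, and Timp2 is the inhibitor whose groups part.

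Mmp9, which encodes gelatinase B, had 127, 104 and 208 counts in Hcy replicates 1, 2 and 3. It had 22, 10 and 10 counts in Veh replicates 1, 2 and 3. Each Hcy library was well above each Veh library in CPM, and among the Hcy libraries replicate 2 was the lowest and replicate 3 the highest. Hcy cultures held 9.51 ± 2.74 CPM (SD, n = 3), against 0.878 ± 0.371 CPM in Veh cultures (SD, n = 3). This was a 10.6-fold rise (log2 fold change 3.41, standard error or SE of 0.33, adjusted p = 0.00136), and Mmp9 was number 28 of the 14603 genes by p. The log2 fold change lay between 3.17 and 3.83 with each library left out in turn, and the call held in 6 of 6 such fits. The gene (ENSRNOG00000017539) is listed on chromosome 3 from 161413298 to 161421520 on the plus strand of the table's own positions, whose build the table does not name. MMP-9 is also a product of neutrophils and microglia. Of the 6 neutrophil markers, S100a9 was found at 3.28 to 4.70 CPM in Hcy and 1.84 to 2.36 CPM in Veh (adjusted p = 0.11), and the other 5 had at most 4 counts in any library. The 10 markers of microglia and macrophages summed to 1.68 to 2.66 CPM in Hcy and 1.52 to 1.72 CPM in Veh, with 5 of them at 0. In bulk libraries, fewer or more cells of a type and less or more RNA per cell cannot be told apart.

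Mmp2, which encodes gelatinase A, was the most abundant of the 6 proteases. It stood at 118, 114 and 110 CPM in Hcy replicates 1, 2 and 3 and at 116, 95.6 and 106 CPM in Veh replicates 1, 2 and 3. The groups overlapped, and the log2 fold change of 0.11 did not pass the test (adjusted p = 0.665, 95% interval -0.09 to 0.30). The gelatinases thus differed in level and in response: per kilobase of gene length, Mmp2 was at 34.4 ± 3.30 CPM per kilobase (SD, n = 3) in Veh and Mmp9 at 0.279 ± 0.118. Mmp9 remained below Mmp2 in every Hcy library, at 2.22 to 3.94 CPM per kilobase against 36.0 to 38.5. Mmp2 lies on the minus strand of chromosome 19, from 15542765 to 15570611.

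The stromelysins, proteases of broad specificity that cut proteoglycans, laminin and fibronectin and can activate other pro-MMPs, had fold changes of opposite sign. Mmp10 (stromelysin-2) stood at 4.81, 4.50 and 5.37 CPM in Hcy replicates 1, 2 and 3 and at 2.79, 1.66 and 2.08 CPM in Veh replicates 1, 2 and 3, so the groups did not overlap. It rose 2.24-fold (log2 fold change 1.17, SE 0.24, adjusted p = 0.0406). The call of Mmp10 depended on single libraries. The adjusted p of Mmp10 was 0.141, 0.112 and 0.187 without Hcy replicates 1, 2 and 3, and 0.122 without Veh replicate 2, while the call held without Veh replicates 1 or 3. Mmp3 (stromelysin-1) stood at 3.81, 4.10 and 4.00 CPM in Hcy replicates 1, 2 and 3 and at 6.71, 6.12 and 6.85 CPM in Veh replicates 1, 2 and 3. Each Hcy library lay below each Veh library, and the log2 fold change was -0.72 (SE 0.16, 95% interval -1.08 to -0.36). Its adjusted p of 0.0535 was just above the threshold, and it was 0.0447 with DESeq2 and 0.0448 on the genes kept by filterByExpr. It was 0.0658 without a count minimum and 0.0537 to 0.197 with each library left out, where it passed in 0 of 6 fits. In Veh the level of Mmp3 was above that of Mmp10 in every library (3.58 to 4.01 against 0.973 to 1.64 CPM per kilobase). In Hcy that order was turned, with Mmp10 at 2.64 to 3.15 and Mmp3 at 2.23 to 2.40 CPM per kilobase. The stromelysins have related sequences, so reads that match both genes could have been split or left out in the authors' counting.

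Mmp3 and Mmp10 lie in a cluster of MMP genes. The table lists 10 Mmp genes on chromosome 8 between 5522739 and 5901049, of which 4 had at least 10 summed counts: Mmp13, Mmp3, Mmp1 and Mmp10, in that order. Mmp3 runs from 5676665 to 5698579 and Mmp10 from 5734348 to 5742243, both on the plus strand, with 35768 bases between them that hold Mmp1. The collagenase gene Mmp1 was counted 5, 7 and 12 times in Hcy against 5, 4 and 6 times in Veh, and its log2 fold change of 0.68 did not pass the test (adjusted p = 0.649). Mmp8, Mmp27, Mmp20 and Mmp7, which follow Mmp10, had 0 counts in every library.

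Promoter stretches are shown for Mmp3 and Mmp10, because the stromelysin genes had fold changes of opposite sign and a like start-site layout, and for Timp2, the inhibitor that was called. RefSeq promoter windows on the GRCr8 build matched 7 of the 10 members by symbol, each with 250 bases before and 50 after the gene's start. Mmp2, Mmp9 and Mmp14 were not among them. The 100 bases before the start of Mmp3 (chr8:12925181-12925280, plus strand), Mmp10 (chr8:12974607-12974706, plus strand) and Timp2 (chr10:104089215-104089314, minus strand) read as follows, 5′ to 3′. Capitals mark the words TGAGTCA (known as the AP-1 motif), TATAAA and GGGCGG, searched on both strands, which do not overlap each other in these stretches.
Mmp3: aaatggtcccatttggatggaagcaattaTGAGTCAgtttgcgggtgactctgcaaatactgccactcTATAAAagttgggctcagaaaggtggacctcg
Mmp10: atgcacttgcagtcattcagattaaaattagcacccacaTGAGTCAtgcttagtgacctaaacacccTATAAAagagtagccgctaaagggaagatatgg
Timp2: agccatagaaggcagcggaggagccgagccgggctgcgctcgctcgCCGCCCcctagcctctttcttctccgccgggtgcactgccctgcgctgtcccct

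TGAGTCA begins 71 bases before the start of Mmp3 and 61 bases before that of Mmp10, and TATAAA begins 32 and 33 bases before. The window of Mmp10 holds TATAAA once more, 196 bases before the start, where it overlaps its complement. The windows of the other 5 members held neither word. Among all 33469 promoter windows of this length, TGAGTCA or its complement was in 4.63% and TATAAA in 14.2%. Timp2 holds GGGCGG as its complement CCGCCC, 54 bases before the start, a word found in 33.1% of all windows. Each of Mmp15, Timp1, Timp3 and Reck also had it in its window, and Mmp3 and Mmp10 did not. A match in letters is a description and not a bound site.

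The membrane-type proteases sit on the cell surface, where MMP-14 activates pro-MMP-2 together with TIMP-2. Mmp15 stood at 26.4, 23.4 and 24.4 CPM in Hcy replicates 1, 2 and 3 and at 16.2, 14.7 and 12.7 CPM in Veh replicates 1, 2 and 3. The groups did not overlap. It was 1.70-fold higher in Hcy (log2 fold change 0.76, SE 0.12, adjusted p = 0.0136), which passed the adjusted p but not the fold threshold. The adjusted p of Mmp15 was 0.084, 0.0579 and 0.0825 without Hcy replicates 1, 2 and 3 and 0.0587 without Veh replicate 2. Mmp14 stood at 8.69, 8.06 and 7.22 CPM in Hcy replicates 1, 2 and 3 and at 7.18, 5.42 and 6.51 CPM in Veh replicates 1, 2 and 3. The groups did not overlap, though the lowest Hcy and the highest Veh library nearly met, and the log2 fold change of 0.32 did not pass the test (adjusted p = 0.457, 95% interval -0.04 to 0.69). Mmp14 is listed on chromosome 15 from 33074441 to 33083655 and Mmp15 on chromosome 19 from 10079765 to 10101451.

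Among the inhibitors, Timp2 fell. It had 157, 152 and 195 counts in Hcy replicates 1, 2 and 3 and 462, 389 and 386 counts in Veh replicates 1, 2 and 3. Scaled to library size these were 11.3, 10.2 and 11.6 CPM against 27.4, 24.8 and 26.7 CPM, so that both groups were tight and far apart. The level of 11.0 ± 0.742 CPM (SD, n = 3) in Hcy was 2.38-fold below the 26.3 ± 1.37 CPM (SD, n = 3) in Veh (log2 fold change -1.25, SE 0.11, adjusted p = 0.000801). Timp2 was number 17 of all genes by p, ahead of Mmp9. The call held in 6 of 6 fits that left out a library, with log2 fold changes from -1.30 to -1.20. TIMP-2 inhibits a wide range of MMPs and also bridges MMP-14 and pro-MMP-2 at the cell surface. The gene (ENSRNOG00000003148) lies on the minus strand of chromosome 10, from 107338465 to 107386072, and the gene that overlaps it, Cep295nl, had at most 1 count in a library.

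The other 3 inhibitors showed no change that passed the test. Timp1, a secreted inhibitor that binds pro-MMP-9, stood at 93.2, 87.5 and 95.6 CPM in Hcy replicates 1, 2 and 3 and at 86.7, 89.8 and 122 CPM in Veh replicates 1, 2 and 3. Its spread in Veh came from replicate 3, and the log2 fold change of -0.11 (adjusted p = 0.79, 95% interval -0.40 to 0.18) became 0.06 without that library. Timp3, which is held in the matrix and also inhibits ADAM proteases, stood at 114, 113 and 111 CPM in Hcy replicates 1, 2 and 3 and at 131, 128 and 97.0 CPM in Veh replicates 1, 2 and 3. Its log2 fold change was -0.08 (adjusted p = 0.845, 95% interval -0.33 to 0.18). Reck stood at 49.0, 46.6 and 46.1 CPM in Hcy replicates 1, 2 and 3 and at 52.2, 57.9 and 40.7 CPM in Veh replicates 1, 2 and 3, a log2 difference of -0.09 (adjusted p = 0.826, 95% interval -0.36 to 0.18). In Timp3 and Reck it was again Veh replicate 3 that stood apart, here below the other Veh libraries, and all 3 genes had overlapping groups. Without that library the log2 fold change was -0.20 for Timp3 (adjusted p = 0.0721) and -0.22 for Reck (adjusted p = 0.111). The 3 intervals together run from -0.40 to 0.18, so changes of that size are not excluded. They are not adjusted for the number of genes tested and are not limits of detection, so larger changes could also have missed the adjusted p. Timp1 is listed on chromosome X from 1364786 to 1369384, Timp3 on chromosome 7 from 23544215 to 23594133 and Reck on chromosome 5 from 59348639 to 59415135. Syn1 and Syn3, which overlap Timp1 and Timp3 on the opposite strand, had at most 5 and 10 counts in a library.

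**Figure D2:**
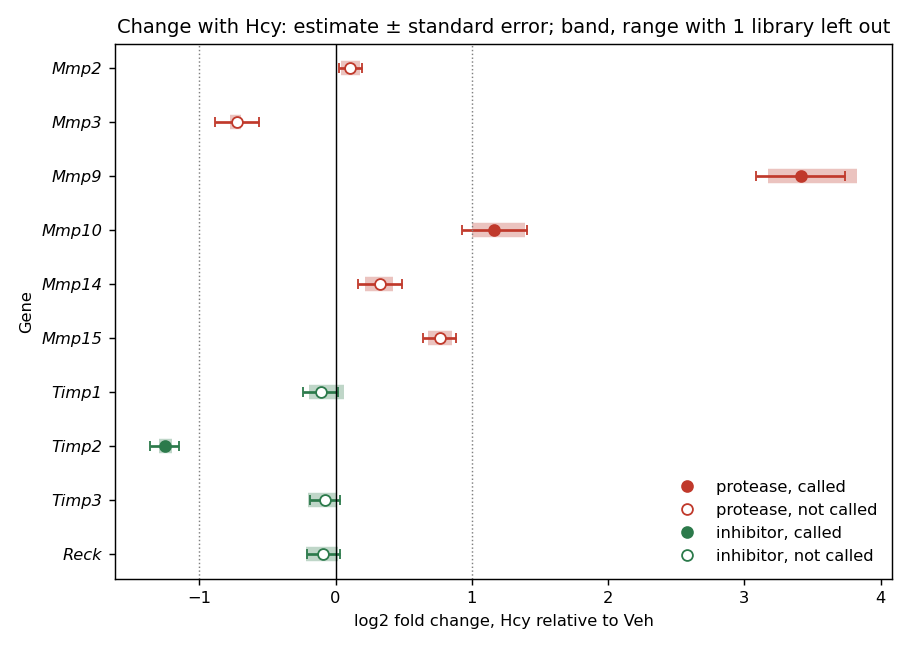
The log2 fold change of each member in Hcy relative to Veh (point) with its standard error (bar) and the range over the 6 fits that leave out 1 library (band), filled where the gene was called and with dotted lines at the fold threshold. Mmp9 (3.41), Mmp10 (1.17) and Timp2 (-1.25) lie beyond the dotted lines, and the bands of Timp1, Timp3 and Reck reach past 0.

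Pericytes, mural cells wrapped around capillaries, are a further source of TIMPs in vessels. The 10 markers of pericytes and smooth muscle summed to 673 to 699 CPM in Hcy and 1103 to 1330 CPM in Veh. Nearly all of this was Tagln, at 572 to 590 CPM in Hcy and 976 to 1158 CPM in Veh, and Acta2, at 90.7 to 103 CPM in Hcy and 123 to 166 CPM in Veh, genes of the contractile cytoskeleton that both passed the adjusted p without reaching the fold threshold (log2 fold changes of -0.88 and -0.64). The other 8, among them the pericyte markers Pdgfrb, Rgs5, Cspg4, Kcnj8 and Anpep, summed to 5.55 to 8.46 CPM in Hcy and 4.40 to 6.02 CPM in Veh, so that their ranges overlapped. Each of the 8 had at most 54 counts in a library, and their log2 fold changes ran from -1.09 (Anpep) to 1.66 (Cspg4), 5 above 0 and 3 below. Of these 8, 0 passed the adjusted p, and 0 of the 10 markers were called, against 2.34% and 0.486% of all genes tested. The 5 fibroblast markers in the table summed to 44.9 to 68.7 CPM in Hcy and 63.5 to 91.2 CPM in Veh. The study's methods describe a selection step early in culture to remove other cell types, and what part such cells had in the lower Timp2 was not tested.

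Ordered by level per kilobase, the inhibitors stood above most of the proteases. In Veh the order was Timp1 (134 CPM per kilobase), Timp3 (67.8), Mmp2 (34.4), Timp2 (15.8), Reck (11.9), Mmp3 (3.84), Mmp15 (3.63), Mmp14 (2.61), Mmp10 (1.28) and Mmp9 (0.279). Neighbours in this order had library ranges that did not overlap, except Mmp3 and Mmp15. In Hcy the upper part was the same down to Mmp2, followed by Reck (11.2), Timp2 (6.65), Mmp15 (6.17), Mmp14 (3.28), Mmp9 (3.02), Mmp10 (2.87) and Mmp3 (2.32). Here Timp2 and Mmp15 overlapped, as did Mmp14 with Mmp9 and Mmp9 with Mmp10. Timp2 thus went from above Reck to below it, and Mmp9 from the bottom of the order to a level shared with Mmp14 and Mmp10.

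To set proteases against inhibitors, the CPM per kilobase of the 6 proteases was divided by that of the 4 inhibitors within each library. The ratio was 0.270, 0.267 and 0.259 in Hcy replicates 1, 2 and 3 and 0.230, 0.187 and 0.186 in Veh replicates 1, 2 and 3. The groups did not overlap, with Veh replicate 1 nearest to the Hcy libraries, and inhibitor mRNA exceeded protease mRNA in all 6. The group means of the log2 ratio differed by 0.41, or 1.33-fold, and by 0.35 to 0.51 with each library left out. This sum is carried by its most abundant genes. Mmp2 made up 67.8% of the protease sum in Hcy and 74.7% in Veh, and Mmp9 rose from 0.605% to 5.51%. Timp1 made up 60.2% of the inhibitor sum in Hcy and 58.4% in Veh, and Timp2 went from 6.89% to 3.22%. For the 4 secreted proteases over the 3 TIMPs the ratio was 0.228 to 0.235 in Hcy and 0.169 to 0.210 in Veh, a log2 difference of 0.35. No p is given for these ratios, since the members were chosen with results known.

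For the pairs of enzyme and inhibitor known to bind as proenzymes, the ratios moved farther. Mmp9 over Timp1 was 0.0230, 0.0188 and 0.0305 in Hcy replicates 1, 2 and 3 and 0.00354, 0.00167 and 0.00134 in Veh replicates 1, 2 and 3, an 11.9-fold difference (log2 3.57, from 3.28 to 3.98 with each library left out). Even so, Timp1 exceeded Mmp9 by 32.8-fold or more in every Hcy library. Mmp2 over Timp2 was 5.67, 6.02 and 5.13 in Hcy replicates 1, 2 and 3 and 2.29, 2.09 and 2.14 in Veh replicates 1, 2 and 3, a 2.58-fold difference (log2 1.37, from 1.31 to 1.43 with each library left out). Mmp9 and Timp2 passed the test in these pairs, and Timp1 and Mmp2 did not.

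**Figure D3:**
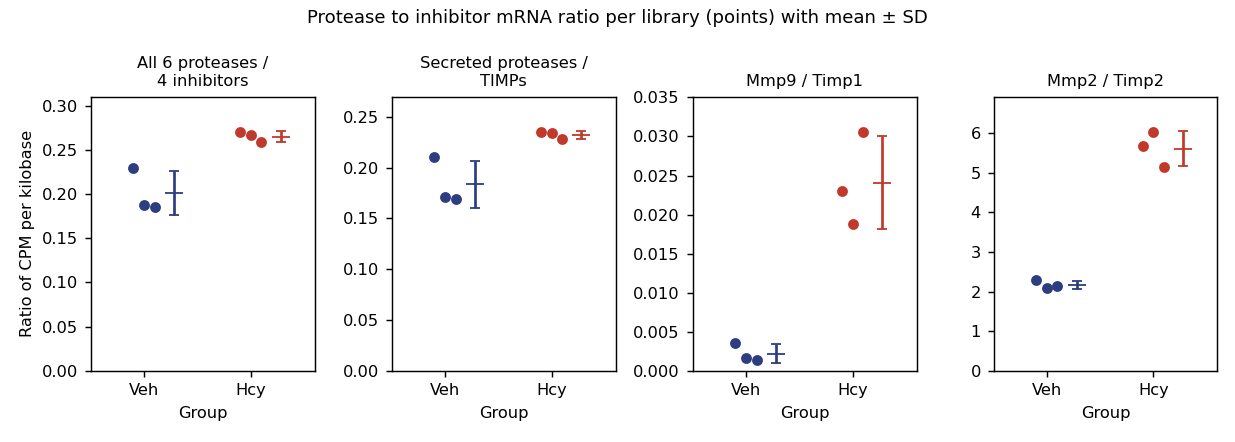
Ratio of protease to inhibitor CPM per kilobase in each library (points), with the mean and SD of 3 libraries beside them, for all members, for secreted proteases over TIMPs, and for the pairs Mmp9 over Timp1 and Mmp2 over Timp2, each on its own axis from 0. In each panel the Hcy libraries lie above the Veh libraries, by 1.33-fold for all members and 2.58-fold for Mmp2 over Timp2.

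Of the 17 other MMP and TIMP genes listed for this comparison, 16 were in the table under these names and 7 were tested. Of these 7, 0 passed the adjusted p, against 2.34% of all genes tested. An unadjusted p of at most 0.05 was found for 2 of them, Mmp19 and Mmp17, and for 1955 of all 14603 genes tested. DESeq2 gave an adjusted p for 4 of the 7 (Mmp16, Mmp19, Mmp23 and Mmp24), and 0 of these passed. The median log2 fold change of the 7 was -0.25. The secreted protease gene Mmp19 was at 7.01 ± 0.648 CPM in Hcy and 9.57 ± 0.661 CPM in Veh (SD, n = 3), with groups that did not overlap (log2 fold change -0.45, adjusted p = 0.178). Mmp17, a protease held to the membrane by a GPI anchor, was counted 2, 3 and 1 times in Hcy against 7, 7 and 9 times in Veh, close to the floor (adjusted p = 0.227). The membrane-type genes Mmp24, at 23.0 CPM in Hcy and 27.3 CPM in Veh, and Mmp16, at 4.93 and 5.21 CPM, had log2 fold changes of -0.25 and -0.08. Those of Mmp23 and the collagenase gene Mmp13 were -0.32 and -0.03, and the sign of Mmp13 turned in 3 fits that left out a library. Mmp12 had 3 counts in all, and Timp4, Mmp7, Mmp8, Mmp11, Mmp20, Mmp21, Mmp27 and Mmp28 had 0.

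Genes that activate MMPs were taken as plasminogen system and proprotein convertase genes, since plasmin and furin-type enzymes cut pro-MMPs. Of 15 tested, 2 passed the adjusted p, both higher in Hcy, where 1.32% of all genes tested did so. Of the 15, 0 were called, against 0.486% of all genes tested, and the median log2 fold change was 0.01. Serpine2 (protease nexin-1, an inhibitor of thrombin and plasminogen activators) was at 73.6 ± 3.77 CPM in Hcy and 44.9 ± 1.77 CPM in Veh (SD, n = 3), a log2 fold change of 0.71 (adjusted p = 0.00235). Plat, which encodes tissue plasminogen activator, was at 814 ± 52.0 CPM in Hcy and 621 ± 35.6 CPM in Veh (SD, n = 3), a log2 fold change of 0.39 (adjusted p = 0.031). An activator and an inhibitor of activators were thus higher together. Plat kept its adjusted p without Veh replicate 3 (0.00233) and lost it without each of the other 5 libraries (0.0659 to 0.189).

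Of 14 binding partners and clearance genes tested, 1 passed the adjusted p, and the share over all genes tested was 2.34%. Cd44, the hyaluronan receptor that holds MMP-9 at the cell surface, was lower in Hcy, at 14.1, 13.8 and 15.2 CPM against 27.0, 27.5 and 26.4 CPM in Veh (log2 fold change -0.91, adjusted p = 0.00235). It kept its adjusted p in 6 of 6 fits that left out a library, and did not reach the fold threshold. The median of these genes was 0.03. Of 20 transcription factors known to act at MMP promoters, such as AP-1, NF-κB and ETS proteins, 1 passed the adjusted p. It was the AP-1 gene Fosl1, lower in Hcy at 74.6 ± 2.11 CPM against 96.9 ± 5.48 CPM in Veh (SD, n = 3), a log2 difference of -0.38 (adjusted p = 0.0364). Fosl1 kept its adjusted p without Veh replicate 3 (0.0128) and lost it without each of the other 5 (0.087 to 0.183). The median of the factors was 0.14.

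Among 18 basement membrane genes, whose proteins MMPs cut, 3 passed the adjusted p, all higher in Hcy, where 1.32% of all genes tested did so. Of the 18, 0 were called, against 0.486% of all genes tested, and the median log2 fold change was 0.15. Lamb1, the laminin beta-1 chain, was at 1213 ± 8.47 CPM in Hcy and 714 ± 54.9 CPM in Veh (SD, n = 3), a log2 fold change of 0.76 (adjusted p = 0.00118, held in 6 of 6 fits that left out a library). Lama4, the laminin alpha-4 chain of endothelial basement membranes, had a log2 fold change of 0.54 (adjusted p = 0.0161). Nid2, which encodes a nidogen that links laminin to collagen IV, had one of 0.55 (adjusted p = 0.0145). Lama4 lost its adjusted p without Hcy replicates 1, 2 or 3 or Veh replicate 2 (0.0606 to 0.0906), and Nid2 without Hcy replicates 1, 2 or 3 (0.0783 to 0.0832).

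**Figure D4:**
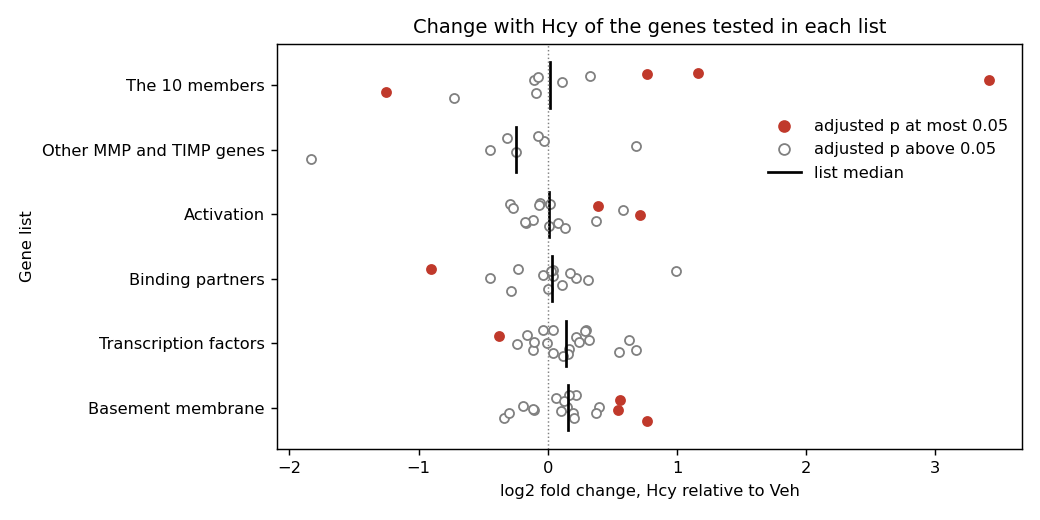
The log2 fold change in Hcy relative to Veh of each tested gene (point) in the 10 members and in 5 lists of related genes, red where the adjusted p was at most 0.05, with a black bar at the list median. Medians lie between -0.25 and 0.15, and the members with the farthest values are Mmp9 at 3.41 and Timp2 at -1.25.

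The genes whose pattern over the 6 libraries was most like that of Mmp9 were Robo3 (a receptor of axon guidance), Prss12 (the serine protease neurotrypsin) and AABR07073045.1, by the root mean square difference of centred log2 CPM among 11787 genes with a mean of at least 1 CPM. Their differences from Mmp9 were 0.39, 0.65 and 0.76, and their log2 fold changes were 3.86, 2.40 and 4.04. AABR07073045.1 lost its call without Hcy replicate 3 or without Veh replicates 1 or 2 (adjusted p of 0.0542 to 0.0613). Closest to Timp2 were Hmox1 (heme oxygenase-1), Tnfsf18 (a TNF family ligand) and Lpl (lipoprotein lipase), with differences of 0.07, 0.08 and 0.09, and log2 fold changes of -1.17, -1.15 and -1.12 against -1.25 for Timp2. The profile of Timp2 was therefore matched more closely than that of Mmp9. On the log2 scale the libraries of Mmp9 were also more spread than those of Timp2 in both groups, and Mmp9 had 10 to 22 counts in Veh. What part this spread, or the larger change of Mmp9, had in the looser match was not tested.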

How the data were processed

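RNA-seq counts of 6 rBMEC libraries (3 Hcy, 3 Veh) were used. The deposited values are the authors' raw read counts for each gene, without normalization, and, per the file headers, other columns such as the gene length in bases. The labels' processing notes name fastp, HISAT2 2.2.1, StringTie 2.2.3, Cufflinks, featureCounts 2.0.6 and DESeq2 1.42.0 without their roles, and the use of strand in counting is not given in the sources used here. The notes and the study's methods name mRatBN7.2, but the deposited table names no build and lists Cacna1c outside the intervals that the methods give, so its positions are printed as listed and are not to be read as mRatBN7.2. A second deposited table holds the authors' own normalized values, fold changes and p-values and was not used.

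Genes with at least 10 summed counts were kept. Counts were scaled by TMM and compared with edgeR 4.0.16 (quasi-likelihood test, condition as the only term, R 4.3.3), adjusted by Benjamini-Hochberg over all genes. Standard errors are the coefficient divided by the square root of F, and 95% intervals use the test's degrees of freedom. Levels are TMM-scaled CPM, divided by gene length where genes are compared. Libraries held 14024997 to 16764584 counts, and limits from counts cover counting error only.

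Alternatives were DESeq2 1.42.0, its size factors in edgeR, library totals alone, other count minimums, no fold threshold, a prior count of 2, the replicate number as a block, and leaving out each library. The test was also run on simulated data. Named genes were all members, tested genes of the other MMP and TIMP list, genes of the other lists past the adjusted p, and the 3 nearest to Mmp9 and to Timp2. The members and lists were chosen with earlier results of these data known. Pecam1 and Col1a2 were not matched by name.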

Additional observations from a re-analysis of the deposited data

How the results depend on the processing

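Mmp9 was called as higher and Timp2 as lower in Hcy under every alternative run (DESeq2, other scalings, other count minimums, the replicate block, a prior count of 2 and each library left out), with Mmp9 between 3.17 and 3.83 on the log2 scale and Timp2 between -1.30 and -1.20. The number of members called higher was 2, and it ran from 1 to 2 with each library left out. It was 1 with the replicate number as a block, where Mmp10 was at 1.18 on the log2 scale with an adjusted p of 0.0541 by edgeR. With the block the adjusted p was also 0.0733 for Fosl1, which then no longer passed, and 0.106 for Mmp3. The deviations of samples of the same number correlated at 0.03, 0.14 and 0.06 over 12296 genes. Their mean was 0.077. The mean of -0.038 for samples of different numbers is no separate evidence, since deviations within a group cancel and nearly fix it from the first. Hcy replicates 2 and 3 each correlated best with the Veh replicate of their own number. Hcy replicate 1 correlated best with Veh replicate 3 (0.11), so the numbers were not taken to pair the libraries. With the block 82 genes were called in all, against 71 without it, and the number of members called lower stayed at 1. Over all genes the count was 109 without a count minimum, 341 without the fold threshold, and from 39 to 112 with each library left out, where the highest was without Veh replicate 3. The cause of these shifts was not tested. Values near 0 turned sign: Timp1 ran from -0.20 to 0.062 with each library left out (0.062 without Veh replicate 3), Timp3 from -0.20 without Veh replicate 3 to 0.00054 without Veh replicate 1, Reck from -0.22 without Veh replicate 3 to 0.021 without Veh replicate 2, and Mmp13 from -0.37 to 0.22 (0.22, 0.21 and 0.14 without Hcy replicate 1, Veh replicate 2 and Veh replicate 3). The 4 protease to inhibitor ratios moved by less than the spread between libraries under the alternatives run, also without division by gene length. Counts were low for Mmp17 (1 to 9 in a library), Mmp1 (4 to 12) and Mmp13 (6 to 15), against a floor of 3.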
